A study of Mus musculus with 8 samples.

Results

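The calcitonin receptor gene Calcr, the related receptor gene Calcrl, the genes of the receptor activity-modifying proteins Ramp1, Ramp2 and Ramp3, and the collagen V chain genes Col5a1, Col5a2 and Col5a3 were followed in muscle stem cells of young and old mice. These 8 genes were taken by symbol from a table of 24630 genes, and all 8 were found. Muscle stem cells (satellite cells) were sorted from limb muscles of male C57BL/6 mice as cells without CD45, CD31 and Sca1 and with VCAM, and RNA was sequenced without culture, with ERCC control RNA added to every sample by cell number. The young group was 4 animals aged 4 months and the old group 4 animals aged 22 months, with 1 library per animal and no treatment named for either group. The comparison asks how transcripts of quiescent muscle stem cells differ with age.

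Calcr is a receptor of the G protein-coupled family that binds calcitonin and raises cyclic AMP through the Gs protein, adenylyl cyclase and protein kinase A (PKA). In satellite cells of adult muscle it is known for holding the cells in quiescence, and collagen V made by the cells themselves, downstream of Notch and its DNA-binding partner RBPJ, is known as a surrogate ligand for it. Calcrl does not respond to these peptides alone: it pairs with a RAMP to form the receptor for calcitonin gene-related peptide (with RAMP1) or adrenomedullin (with RAMP2 or RAMP3), and it is best known from endothelium. Collagen V is a minor fibrillar collagen, a heterotrimer of alpha 1 and alpha 2 chains in most tissues, with the alpha 3 chain as an alternative partner.

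Calcr and Calcrl changed in opposite directions, and the start regions of both genes are shown so that the letters stand beside the values. The 250 bases before each annotated start were taken from RefSeq on GRCm38.p6, where 6 of the 8 genes had an entry (not Col5a2 or Ramp2). Calcr had 2 entries, at chr6:3764714-3764963, minus strand, the outer start, and chr6:3763624-3763873, minus strand, the inner start. The other windows lie at chr2:84425267-84425516, minus strand for Calcrl, chr2:27886175-27886424, plus strand for Col5a1 and chr9:20815068-20815317, minus strand for Col5a3. The last pair is shown because these chains ranked the 4 old libraries alike. Capitals mark TGACG, the core letters of the cAMP response element, on either strand.
Calcr outer start: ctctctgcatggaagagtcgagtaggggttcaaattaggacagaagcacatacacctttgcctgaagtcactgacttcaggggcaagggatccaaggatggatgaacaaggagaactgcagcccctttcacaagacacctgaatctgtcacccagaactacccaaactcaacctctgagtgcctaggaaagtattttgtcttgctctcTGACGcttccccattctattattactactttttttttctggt
Calcr inner start: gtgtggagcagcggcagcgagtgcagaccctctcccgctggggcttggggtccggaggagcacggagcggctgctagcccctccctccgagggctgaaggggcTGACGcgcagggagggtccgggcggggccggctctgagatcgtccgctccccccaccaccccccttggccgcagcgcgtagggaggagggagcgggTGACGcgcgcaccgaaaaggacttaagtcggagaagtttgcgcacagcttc
Calcrl: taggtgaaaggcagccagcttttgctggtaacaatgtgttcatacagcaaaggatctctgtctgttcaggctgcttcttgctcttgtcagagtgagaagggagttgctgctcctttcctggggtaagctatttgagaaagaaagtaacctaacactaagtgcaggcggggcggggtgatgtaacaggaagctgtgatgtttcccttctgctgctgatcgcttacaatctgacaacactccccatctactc
Col5a1: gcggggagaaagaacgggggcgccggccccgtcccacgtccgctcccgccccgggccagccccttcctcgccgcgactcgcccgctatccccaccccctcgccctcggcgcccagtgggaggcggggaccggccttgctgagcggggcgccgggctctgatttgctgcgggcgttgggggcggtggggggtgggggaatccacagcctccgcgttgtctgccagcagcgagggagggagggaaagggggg
Col5a3: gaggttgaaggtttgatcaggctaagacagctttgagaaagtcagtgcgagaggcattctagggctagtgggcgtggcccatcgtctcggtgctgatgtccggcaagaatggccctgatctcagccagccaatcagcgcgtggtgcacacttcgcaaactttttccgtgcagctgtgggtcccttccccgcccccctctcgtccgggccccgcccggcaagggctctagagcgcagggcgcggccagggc
These core letters were found once before the outer start of Calcr and at 2 places before the inner start of Calcr, and 17.8% of 32851 windows of the same length held them. They were found in none of the other 3 windows printed. The full element TGACGTCA, which contains TGACG on both strands and which 1.55% of all windows held, was in none of the 5, and neither was TGGGAA, the core letters of the RBPJ motif, which 21.6% held. TGGGAA was found once in the window of Ramp1, on the opposite strand. GC content was 46.0% and 70.8% in the outer and inner windows of Calcr, 48.4% in that of Calcrl, 76.4% in that of Col5a1 and 62.8% in that of Col5a3, against a median of 52.4% over all windows. These matches describe letters only.

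On GRCm38, in the GENCODE M21 annotation, all 8 genes are protein-coding. Calcr lies at chr6:3685680-3764714 and Calcrl at chr2:84330626-84425411, both on the minus strand. Ramp1 lies at chr1:91179822-91225196, Ramp2 at chr11:101246028-101259546 and Ramp3 at chr11:6658521-6677475, all on the plus strand. Col5a1 lies at chr2:27886425-28039514 on the plus strand, Col5a2 at chr1:45374321-45503282 and Col5a3 at chr9:20770050-20815067 on the minus strand.

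Levels are in RPKM, the deposited unit, which divides reads by gene length and by library size, so that genes of different length can be set side by side. Priming by oligo(dT) and the unknown counting of shared exons limit such comparisons between genes. The libraries of the ages differed in depth: young libraries held 1.91 to 6.56 M reads in genes (M, mega) and old libraries 20.1 to 24.9 M, so depth and age cannot be told apart. Genes of olfactory and vomeronasal receptors, which muscle cells do not use, averaged 0.178 to 0.600 RPKM in young and 0.0196 to 0.0437 RPKM in old libraries. This background was thus higher in young libraries. A low value in young animals was less certain and could be raised by it, which would favour a fall with age. Its part in the falls of low genes was not tested. The deposited scaling and the library totals give different fold changes. On the deposited scale the median log2 fold change of the 11096 tested genes (those averaging 1 RPKM or more over the 8 libraries) was 0.36, and after rescaling to each library's total reads (here the read-share scale) it was -0.19. Tests were limma on log2(RPKM + 1), with Benjamini-Hochberg adjustment over all tested genes, and "rose" and "fell" mean an adjusted p under 0.05 on the read-share scale. The added 1 draws the log2 fold changes of low genes toward 0. For Ramp2 the read-share value was -0.71 with 1 added and -1.01 with 0.1 added. Of the markers of satellite cells, Pax7 had 9.71 to 19.9 RPKM in young and 11.4 to 15.8 RPKM in old libraries, and Vcam1, a marker of the sort, had 139 to 335 and 464 to 928 RPKM. Some transcripts typical of other cells were higher than Pax7. The fibroblast marker Dcn had 320 to 452 RPKM in young and 703 to 1257 RPKM in old libraries. The tenocyte marker Fmod had 124 to 192 RPKM in young and 553 to 1364 RPKM in old libraries. Others of the same lists were lower than Pax7. The fibroblast marker Pdgfra had 2.48 to 4.57 RPKM in young and 1.29 to 4.32 RPKM in old libraries. The tenocyte marker Scx had 0.0923 to 0.709 and 0.185 to 0.465 RPKM and was not tested. Of 6 tested tenocyte markers 5 rose. The leukocyte gene Ptprc (CD45) had 0.678 to 1.80 RPKM in young and 0.0826 to 0.398 RPKM in old libraries. Other leukocyte genes were higher. Lyz2 had 9.33 to 40.7 RPKM in young and 11.3 to 37.7 RPKM in old libraries, and Cd68 had 4.32 to 7.37 and 7.18 to 9.71 RPKM. Of the 8 leukocyte genes listed, 4 averaged under 1 RPKM.

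Of the 8 genes, 6 passed the minimum mean and were tested. On the read-share scale Calcrl rose, Calcr, Col5a1 and Ramp2 fell, and Col5a2 and Col5a3 were not called. For comparison, 7.11% of all tested genes rose and 20.5% fell, 27.7% together, so that falls were common among the genes at large. Among genes averaging 5 RPKM or more, as Calcr, Calcrl and Col5a2 do, 12.5% rose and 13.1% fell; among those of 1 to 5 RPKM, as Ramp2, Col5a1 and Col5a3 are, 1.39% rose and 28.4% fell. On the deposited scale Calcrl and Col5a2 were higher and Calcr lower in old animals, where 42.1% of tested genes were called higher and 5.34% lower, 47.4% together. At 5 RPKM or more those shares were 64.3% and 0.772%, and at 1 to 5 RPKM 18.5% and 10.2%, so that a higher call there was common for Col5a2 and a lower call uncommon for Calcr. The ages did not overlap on the read-share scale for Calcrl (old higher, as in 7.85% of tested genes) and for Calcr and Col5a1 (old lower, as in 23.1%), with 31% of genes in either direction. As deposited they did not overlap for Calcrl and Col5a2 (old higher, 39.8%) and for Calcr (old lower, 4.37%), with 44.2% in either direction. Calcr and Calcrl were thus the members with calls in the same direction on both scales.

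**Figure D1:**
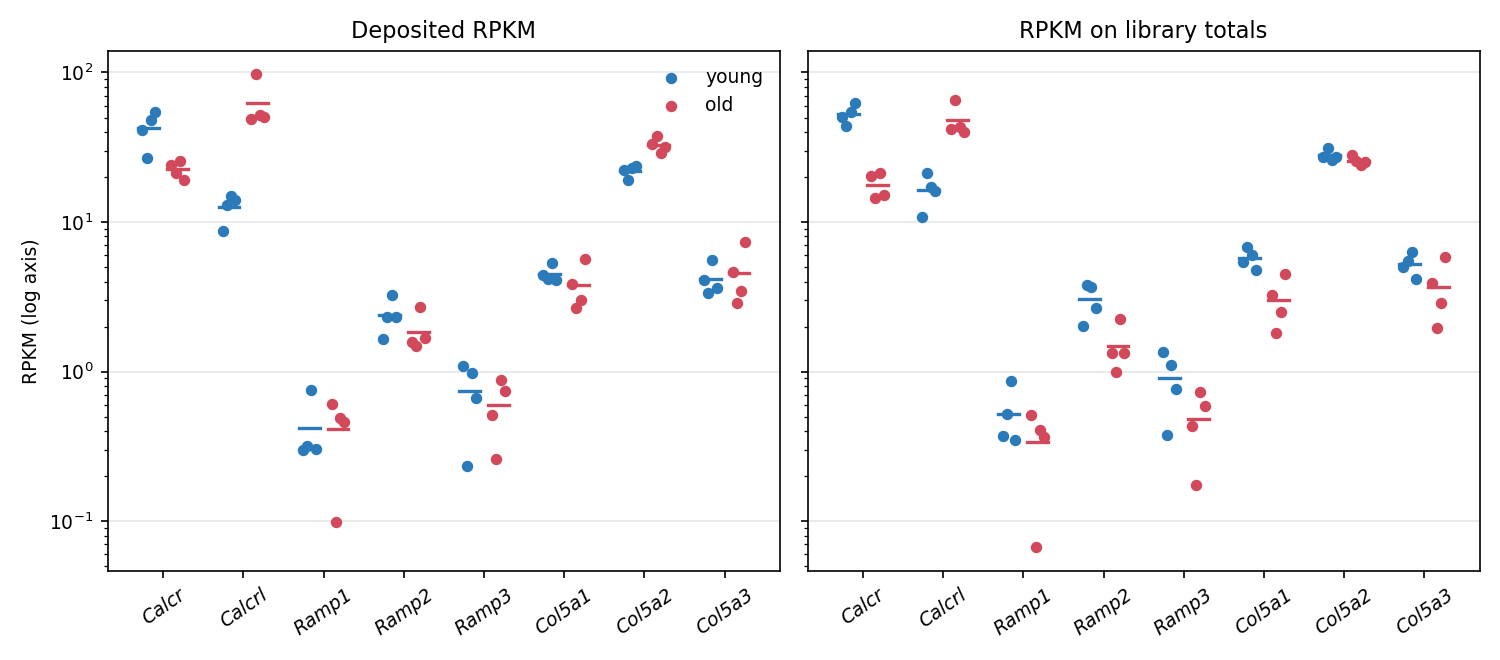
RPKM (log axis) of the 8 genes in 4 young and 4 old libraries, as deposited on the left and after rescaling to library totals (the read-share scale) on the right; each point is 1 animal and each bar the group mean. Calcr and Calcrl separate the ages in opposite directions on both scales, while Ramp1 and Ramp3 lie near or under 1 RPKM throughout.

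Calcr was the highest of the 8 genes in young animals and the third in old ones. Its deposited values were 40.9, 26.9, 48.1 and 54.2 RPKM in young libraries 1 to 4 and 24.0, 21.3, 25.5 and 19.0 RPKM in old libraries 1 to 4. All 4 old libraries lay below all young ones, although young library 2 came close to old library 3. On the read-share scale the same libraries gave 50.2, 44.0, 54.6 and 62.4 RPKM in young and 20.4, 14.4, 21.3 and 15.1 RPKM in old animals, which leaves a wide gap between the ages. The mean share of reads of Calcr was 2.97-fold lower in old animals. Calcr fell by 1.53 ± 0.16 log2 units (SE, limma, adjusted p = 0.000711), and of the 11096 tested genes 183 had a larger fall. On the deposited scale the log2 fold change was -0.85 ± 0.22 (limma, adjusted p = 0.00729). Without young libraries 1 and 2, the shallowest, it was -1.68 on the read-share scale (limma, adjusted p = 0.0141), with every library thinned to the smallest read total -1.46 (adjusted p = 0.00907), and over all alternatives on that scale adjusted p-values ran from 0.000230 to 0.0141.

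Calcrl, low in young animals next to Calcr, was the highest of the 8 genes in old animals. Deposited values were 8.74, 12.96, 15.0 and 13.9 RPKM in young libraries 1 to 4 and 49.0, 97.1, 52.1 and 50.5 RPKM in old libraries 1 to 4. The lowest old library stood more than 3 times as high as the highest young one, and old library 2 stood apart from the other old libraries. As shares of reads the values were 10.7, 21.2, 17.1 and 16.1 RPKM in young and 41.6, 65.8, 43.4 and 40.1 RPKM in old animals. The mean share of reads of Calcrl was 2.94-fold higher in old animals. Calcrl rose by 1.51 ± 0.21 log2 units (SE, limma, adjusted p = 0.00211), and 25 tested genes rose more. On the deposited scale it was 2.17 ± 0.24 (limma, adjusted p = 0.000154). Without old library 2 the log2 fold change on the read-share scale was 1.34 (limma, adjusted p = 0.00540), with thinned reads it was 1.48 (adjusted p = 0.0103), and across the alternatives adjusted p-values were 0.000346 to 0.0174.

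**Figure D2:**
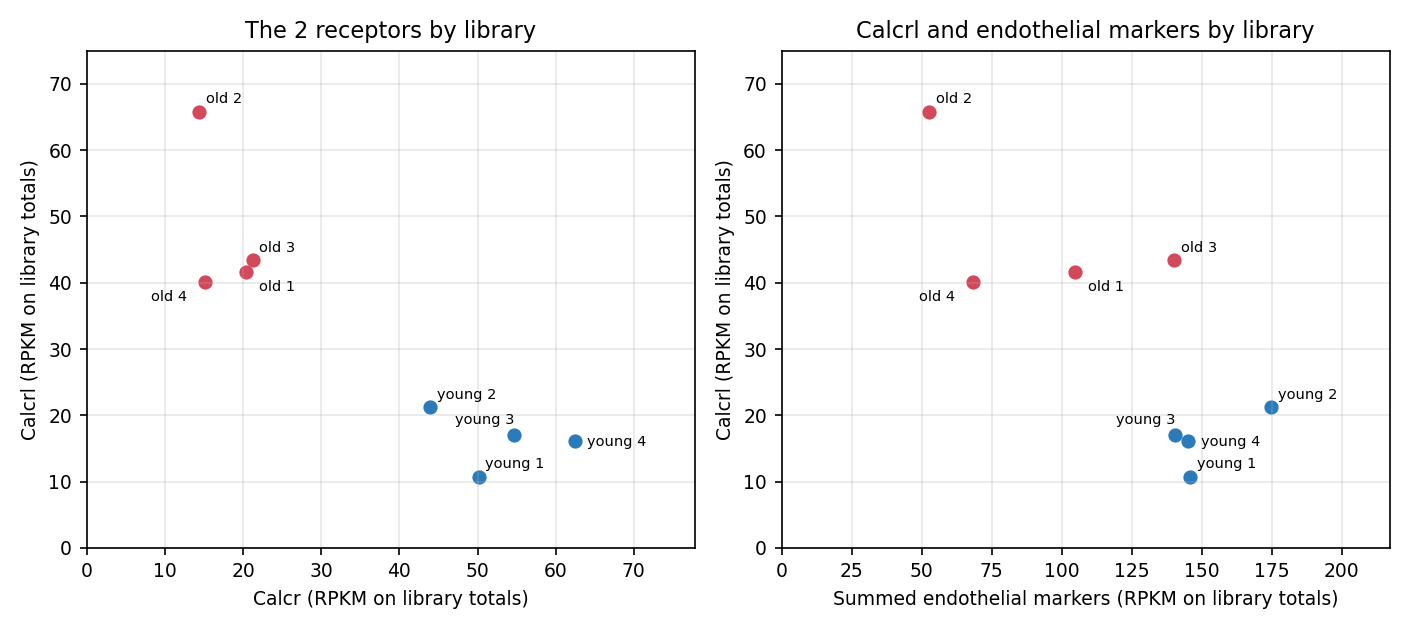
Calcrl against Calcr (left) and against the sum of 14 endothelial markers (right), in RPKM on the read-share scale, with 1 point per library. Old libraries have Calcrl at 40.1 to 65.8 and Calcr at 14.4 to 21.3 RPKM, and the old library with the highest Calcrl has the lowest endothelial sum.

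The ratio of the 2 receptor genes within a library does not depend on how libraries are scaled. Calcr was 4.68, 2.07, 3.20 and 3.89 times Calcrl in young libraries 1 to 4, and 0.490, 0.219, 0.490 and 0.376 times in old libraries 1 to 4. Every young library thus held more Calcr than Calcrl per length, and every old library more Calcrl than Calcr. The log2 ratio differed by -3.14 between the ages, from 1.73 ± 0.50 in young to -1.41 ± 0.55 in old animals (SD, n = 4 each, exact two-sided permutation p = 0.0286, the smallest that 70 assignments allow, and 0.05 after adjustment over 7 ratios, which equals the threshold without passing it). Against Pax7, the transcription factor that marks satellite cells, Calcr stood at 2.41 to 4.26 in young and 1.52 to 1.75 in old libraries. That log2 ratio differed by -0.85 between the ages, with no overlap (exact permutation p = 0.0286, adjusted 0.05).

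Endothelial cells are a known site of Calcrl, and CD31-positive cells were gated out. All 14 endothelial markers on the list were detected above a mean of 1 RPKM, none was at 0, and Pecam1 (CD31) itself had 10.7 to 15.5 RPKM in young and 8.004 to 20.4 RPKM in old libraries. Of the 14, 0 rose, 4 fell and 10 were not called by read share (limma), beside 7.11% and 20.5% of all tested genes. Among genes of 1 to 5 RPKM 28.4% fell. The median log2 fold change of the 14 was -0.80 against -0.19 over all tested genes. As deposited 0 of the 14 were higher and 3 lower, beside 42.1% and 5.34%. At the deposited scale their sum was 107 to 126 RPKM in young and 77.9 to 168 RPKM in old libraries. In old library 2, where Calcrl was highest, this sum was the lowest of the 8. Calcrl as a fraction of the sum was 0.0734, 0.121, 0.122 and 0.111 in young and 0.397, 1.25, 0.310 and 0.586 in old libraries. The log2 ratio was 2.39 higher in old animals (exact permutation p = 0.0286, adjusted 0.05). In bulk RNA, fewer cells of a type and less RNA per cell cannot be told apart.

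RAMPs set which peptide Calcrl and Calcr respond to, and all 3 of their genes were low. Ramp2, the partner that makes Calcrl an adrenomedullin receptor, had 1.65, 2.32, 3.25 and 2.31 RPKM in young and 1.56, 1.47, 2.68 and 1.67 RPKM in old libraries. The ages overlapped on both scales. As a share of reads Ramp2 fell by 0.71 ± 0.21 log2 units (SE, limma, adjusted p = 0.0286). Among genes with a mean of 1 to 5 RPKM, 28.4% fell and the median log2 fold change was -0.40, so this fall was common at its level. Leaving out 1 library ended the call for 6 of the 8 libraries, with adjusted p up to 0.0816 (without old library 2). With thinned reads the adjusted p was 0.107, and with median-ratio size factors the log2 fold change was -0.31 (0.190). Within libraries Ramp2 was 0.0139 to 0.0263 of the endothelial sum in young and 0.0127 to 0.0194 in old animals, a log2 difference of -0.24 (exact permutation p = 0.4, adjusted 0.4). Of the 3301 exon bases of Ramp2, 1103 are shared with Vps25 on the same strand, so its level depends on how shared reads were counted.

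Ramp1, the partner that makes Calcrl a receptor for calcitonin gene-related peptide, rested on 3 to 17 reads in young and 5 to 31 reads in old libraries. Its values were 0.301, 0.317, 0.755 and 0.303 RPKM in young and 0.602, 0.0982, 0.486 and 0.46 RPKM in old libraries, so the ages overlapped. In young libraries 1, 2 and 4 the value was no higher than the mean of the olfactory and vomeronasal receptor genes in the same library, and in young library 3 and all 4 old libraries it was higher. Ramp3, the other adrenomedullin partner, had 1.10, 0.232, 0.973 and 0.663 RPKM in young and 0.510, 0.258, 0.873 and 0.745 RPKM in old libraries, from 1 to 10 and 6 to 23 reads. The ages overlapped here too. Neither gene reached a mean of 1 RPKM. With no minimum, the log2 fold changes on the read-share scale were -0.19 ± 0.15 for Ramp1 and -0.34 ± 0.20 for Ramp3 (limma, adjusted p = 0.322 and 0.202), from few reads in either group.

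Col5a2, the alpha 2 chain, was the most abundant of the 3 collagen V genes at both ages. It had 22.3, 19.0, 22.8 and 23.8 RPKM in young and 33.1, 37.5, 28.9 and 31.5 RPKM in old libraries as deposited, where all old libraries were higher. On the read-share scale it had 27.4, 31.03, 25.9 and 27.4 RPKM in young and 28.1, 25.4, 24.1 and 25.0 RPKM in old libraries, where the ages overlapped. The log2 fold change was -0.12 ± 0.11 on the read-share scale (limma, adjusted p = 0.426), and as deposited it was 0.55 ± 0.17 (limma, adjusted p = 0.0156), close to the median of 0.64 that all genes of at least 5 RPKM had there. With median-ratio size factors it was 0.47 (limma, adjusted p = 0.0227), so its direction follows the scaling.

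Col5a1, the alpha 1 chain that nearly all collagen V molecules contain, had 4.42, 4.18, 5.28 and 4.11 RPKM in young and 3.83, 2.67, 2.99 and 5.66 RPKM in old libraries. Old library 4 was the highest of the 8 on this scale and the other 3 old libraries the lowest. Its values on the read-share scale were 5.42, 6.84, 6.00 and 4.74 RPKM in young and 3.25, 1.81, 2.50 and 4.49 RPKM in old animals, with no overlap. Col5a1 fell by 0.78 ± 0.20 log2 units (SE, limma, adjusted p = 0.0170). On the deposited scale the change was -0.23 ± 0.18 (limma, adjusted p = 0.309), and with median-ratio size factors -0.31 (adjusted p = 0.149). The call on the read-share scale was also lost without young library 1 (adjusted p = 0.0516), without young library 3 (0.0506), without young libraries 1 and 2 (0.129) and with thinned reads (0.0508), and at its level 28.4% of genes fell.

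Col5a3, the alpha 3 chain, stood at nearly the same level as Col5a1. It had 4.09, 3.33, 5.54 and 3.61 RPKM in young and 4.62, 2.89, 3.46 and 7.37 RPKM in old libraries. Old libraries 4 and 1 were high and 2 and 3 low, the same order as for Col5a1. The log2 fold change of Col5a3 was -0.48 ± 0.23 on the read-share scale (limma, adjusted p = 0.145), and as deposited it was 0.07 ± 0.22 (adjusted p = 0.800). It was called lower on the read-share scale without old library 4 (-0.69, limma, adjusted p = 0.0430), was 0.0022 with median-ratio size factors, and its adjusted p ranged from 0.0430 to 0.994 over the alternatives.

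**Figure D3:**
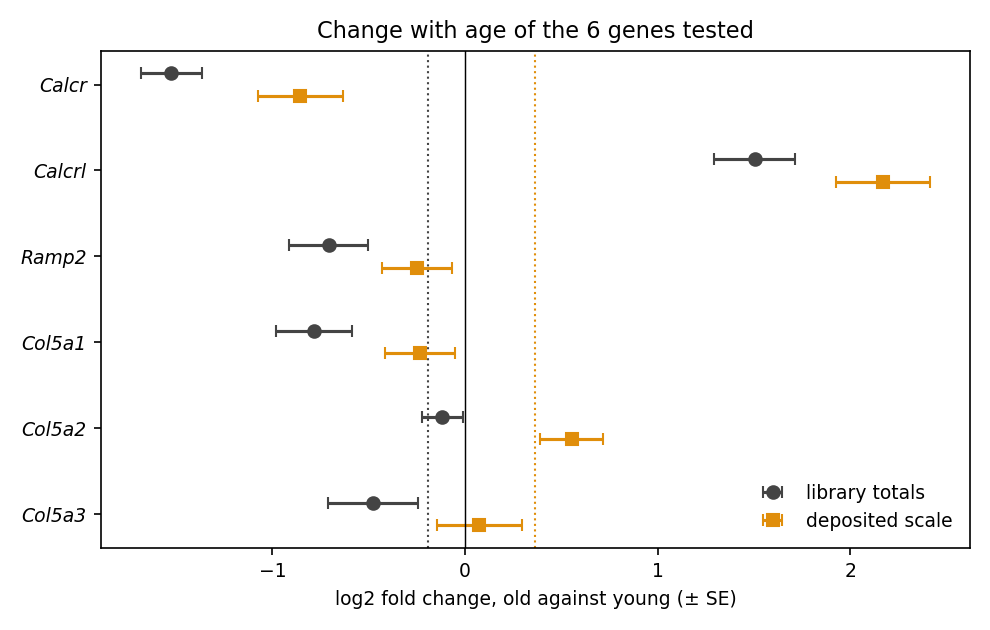
Log2 fold change with age (old against young, bars ± SE) of the 6 tested genes on the read-share scale and on the deposited scale; dotted lines are the medians of all tested genes (-0.19 and 0.36). Calcr and Calcrl lie on opposite sides of 0 on both scales, and Col5a2 and Col5a3 change side with the scale.

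The balance among collagen V chains can be read within each library. Col5a1 was 0.198, 0.220, 0.231 and 0.173 of Col5a2 in young and 0.116, 0.0712, 0.104 and 0.18 of Col5a2 in old libraries. Old library 4 lay among the young values and the other 3 below them. The log2 ratio was -2.29 ± 0.19 in young and -3.17 ± 0.55 in old animals (SD, n = 4 each), a difference of -0.88 that did not pass (exact permutation p = 0.0571, adjusted 0.08). Col5a3 was 0.798 to 1.05 times Col5a1 in young and 1.08 to 1.30 times in old libraries. This ratio was looked at after its values were seen and is given without a test.

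Fibroblasts are a main source of collagen V, and the sort removed Sca1-positive cells, which include fibro-adipogenic progenitors. Ly6a, the Sca1 gene, had 11.6 to 19.1 RPKM in young and 10.7 to 27.1 RPKM in old libraries. None of the 13 fibroblast markers was at 0. Their sum was 1180 to 2053 RPKM in young and 2173 to 3033 RPKM in old libraries as deposited, and 1786 to 2332 and 1473 to 2575 RPKM on the read-share scale. Most of the sum came from Gsn (means of 1021 RPKM in young and 1401 RPKM in old animals) and Dcn (358 and 1069 RPKM), and Dcn rose by 0.86 while Col1a1 fell by 1.71, so ratios to the sum mainly reflect those first genes. Of the 13, 3 rose, 1 fell and 9 were not called, beside 7.11% and 20.5% of all tested genes. As deposited 3 were higher and 1 lower, beside 42.1% and 5.34%. As a fraction of this sum, Col5a1 was 0.00249 to 0.00354 in young and 0.000997 to 0.00210 in old libraries, with no overlap, and the log2 ratio differed by -1.10 between the ages (exact permutation p = 0.0286, adjusted 0.05). For Col5a2 the log2 ratio differed by -0.22 (exact permutation p = 0.371, adjusted 0.4). Of 6 tested tenocyte markers 5 rose and 0 fell (limma), beside 7.11% and 20.5% of all tested genes. The sum of the tenocyte list, with the untested Scx, was 171 to 249 RPKM in young and 758 to 1851 RPKM in old libraries. Old libraries 1 and 4, highest for Col5a1 and Col5a3 among the old, were also highest for this sum (1851 and 1491 RPKM). Its part in the collagen V values was not tested.

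**Figure D4:**
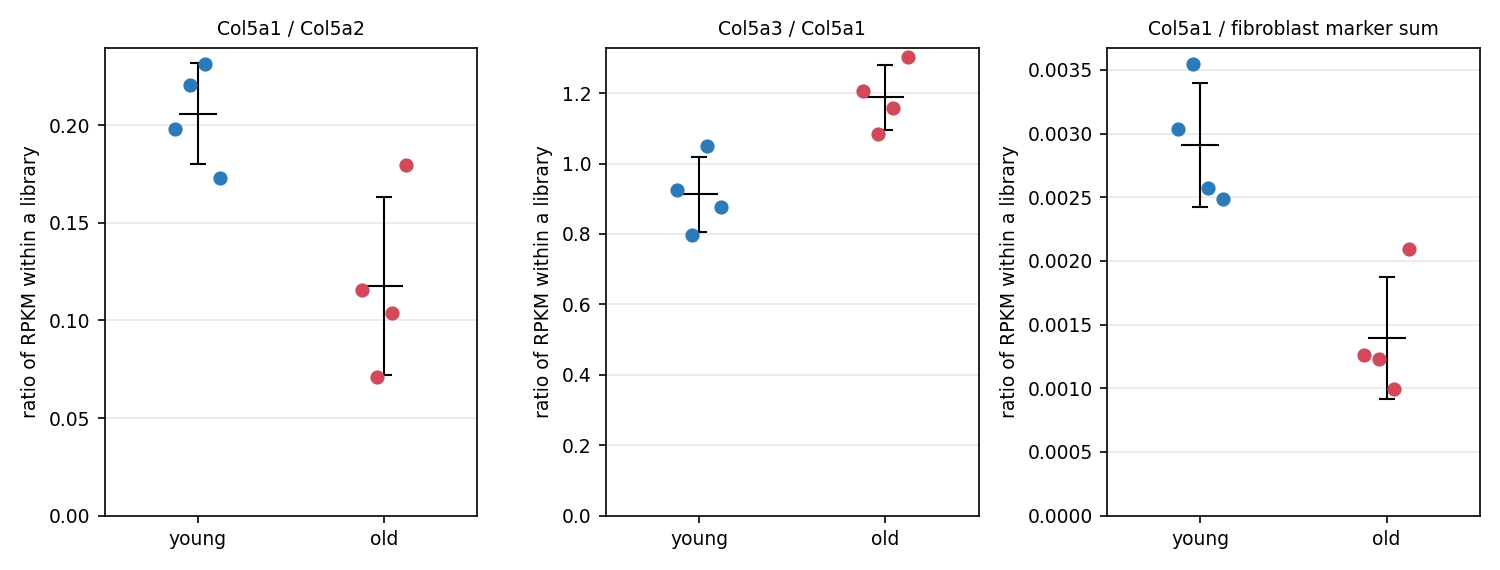
Ratios of RPKM within each library in 4 young and 4 old animals: Col5a1 to Col5a2, Col5a3 to Col5a1, and Col5a1 to the sum of 13 fibroblast markers; points are animals and black bars the mean ± SD. Col5a1 against the fibroblast sum separates the ages, while Col5a1 against Col5a2 has 1 old library (0.18) among the young values.

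By level per length on the deposited scale, the order in young animals was Calcr, Col5a2, Calcrl, Col5a1, Col5a3, Ramp2, Ramp3 and Ramp1. Calcr lay above Col5a2 and Col5a2 above Calcrl in all 4 young libraries. Col5a1 had 4.50 ± 0.54 RPKM and Col5a3 4.14 ± 0.98 RPKM (SD, n = 4). Which of these 2 chains was higher differed between young libraries, as it did for Ramp3 and Ramp1. In old animals the order was Calcrl, Col5a2, Calcr, Col5a3, Col5a1, Ramp2, Ramp3 and Ramp1. The first 3 did not overlap one another, with Calcrl at 62.2 ± 23.3, Col5a2 at 32.7 ± 3.60 and Calcr at 22.5 ± 2.88 RPKM (SD, n = 4). Col5a3 (4.59 ± 1.99) and Col5a1 (3.79 ± 1.34) varied together between the old libraries. Within each old library Col5a3 was the higher of these 2, at 1.08 to 1.30 times Col5a1.

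The peptide ligands of these receptors were low or moderate in the cells themselves. Adm, which encodes adrenomedullin, was the highest, with 11.3 to 16.3 RPKM in young and 16.3 to 21.01 RPKM in old libraries, and a log2 fold change of -0.20 on the read-share scale (limma, adjusted p = 0.353). As deposited Adm was called higher (0.45, limma, adjusted p = 0.0393), so its direction follows the scale. Calca, the gene of calcitonin and of calcitonin gene-related peptide, had 1.90 to 3.61 RPKM in young and 5.24 to 9.94 RPKM in old libraries. The ages did not overlap for Calca as deposited (log2 fold change 1.09, limma, adjusted p = 0.00147), and on the read-share scale it was not called (0.51 ± 0.24, adjusted p = 0.126). Iapp, which encodes amylin, a ligand of Calcr paired with a RAMP, fell by 1.63 ± 0.41 log2 units (SE, limma, adjusted p = 0.0163). Its deposited values were 0.276 to 3.28 RPKM in young and 0.0602 to 0.124 RPKM in old libraries, with a log2 fold change of -1.34. Iapp averaged 2.06 RPKM in young and 0.107 RPKM in old animals and passed the minimum mean only through the young group, so the filter favoured a fall. The lowest young value lies within the young range of the olfactory and vomeronasal receptor genes. Calcb and Adm2, with means of 0.469 and 0.389 RPKM in young and 0.161 and 0.0396 RPKM in old libraries, were not tested.

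Between the receptor and its effects lie the Gs protein, adenylyl cyclases and PKA. Of 20 tested genes of Gs, adenylyl cyclase and PKA, 1 rose, 4 fell and 15 were not called by read share, a share of calls near the 27.7% over all tested genes, with a median log2 fold change of -0.30 against -0.19 over all tested genes. Of the genes of PKA regulatory subunits, Prkar1b rose by 0.85 ± 0.18, from 1.96 to 3.18 RPKM in young to 7.61 to 8.80 RPKM in old libraries. Prkar1a and Prkar2a were not called (0.17 and 0.12), and Prkar2b fell by 0.81. Prkar2b averaged 1.39 RPKM in young and 0.746 RPKM in old animals and passed the minimum mean only through the young group, so the filter favoured its fall. The adenylyl cyclase Adcy7 fell by 0.85, the CREB coactivator Crtc1 by 0.53 and Prkacb, a catalytic subunit, by 0.45. None of the 4 genes that fell was called on the deposited scale, where 9 genes of the list were higher and 0 lower. Over all tested genes 42.1% were higher and 5.34% lower on that scale, which stands beside each deposited count in this paragraph. Of 12 tested cAMP phosphodiesterases, which end the signal, 0 rose and 3 fell: Pde7b by 0.70, Pde3a by 0.61 and Pde1c by 0.39. This is close to the 20.5% of all tested genes that fell. As deposited none of these was called (-0.20, -0.02 and 0.22), Pde1c turned direction, and 3 others of the list were higher and 0 lower. For the abundant Pde4b the log2 difference was -0.10 (limma, adjusted p = 0.49), and as deposited it was called higher (0.60, adjusted p = 0.0319). Of 9 tested genes for receptor desensitisation and traffic, 1 fell, the membrane fusion ATPase Nsf (by 0.45, and 0.14 without a call as deposited), and 8 were not called, while as deposited 3 were higher and 0 lower.

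Notch genes lie upstream of Calcr and collagen V in satellite cells. Of 12 tested, 0 rose, 3 fell and 9 were not called, with a median of -0.47 on the read-share scale and 0.17 on the deposited scale. The share that fell is near the 20.5% of all tested genes. As deposited 4 Notch genes were higher and 0 lower, beside 42.1% and 5.34% of all tested genes. The Notch targets Hey1 and Heyl fell by 1.03 ± 0.15 and 0.68 ± 0.23, and the receptor Notch3, also a pericyte gene, by 0.53, while Rbpj itself was not called (-0.20, limma, adjusted p = 0.27). As deposited, Hey1 (-0.39, limma, adjusted p = 0.0876), Heyl (0.01) and Notch3 (0.14) were not called. Heyl ranged from 44.6 to 159 RPKM in young and from 82.6 to 94.3 RPKM in old libraries, so on the deposited scale the old values lay inside the young range. Of 9 tested pericyte and smooth muscle markers 2 fell and 0 rose, beside 20.5% and 7.11% of all tested genes. As deposited none of the 9 was called higher or lower. LATS kinases and YAP are known as a branch below PKA in these cells. Of 11 tested genes of this branch 2 rose, 0 fell and 9 were not called, beside 7.11% and 20.5% of all tested genes. As deposited 8 were higher and 0 lower, beside 42.1% and 5.34% of all tested genes. Among genes averaging 5 RPKM or more, as most of this branch do, 64.3% were higher on that scale. The 2 that rose were Yap1 (0.41 ± 0.12) and the LATS cofactor Mob1a (0.44 ± 0.13), and as deposited they stood at 1.01 and 1.11. Deposited values of Yap1 were 3.83 to 4.51 RPKM in young and 8.08 to 11.1 RPKM in old libraries. Lats1 and Lats2 were not called (0.01 and -0.46), and as deposited Lats1 was called higher (0.62) and Lats2 was not (0.13).

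Collagen V chains assemble onto fibrils of collagen I and III. Of 5 tested chains of other fibrillar collagens 2 fell, Col3a1 by 1.75 ± 0.16 and Col1a1 by 1.71 ± 0.41, and 3 were not called, among them Col1a2 (-0.83, limma, adjusted p = 0.088) and Col11a1, which can assemble with collagen V chains (-0.48). Over all tested genes 20.5% fell. As deposited the same 2 chains were lower and 0 were higher, beside 5.34% and 42.1% of all tested genes. The difference between these chains and the collagen V chains was not tested. Of 18 tested genes for collagen modification, folding and propeptide removal 0 rose and 3 fell: the propeptide protease Adamts14 by 0.84, the prolyl hydroxylase P3h1 by 0.63 and the lysyl hydroxylase Plod1 by 0.61. This share is no larger than the 20.5% of all tested genes that fell. As deposited these 3 were not called (-0.44, -0.17 and 0.02), and 4 of the list were higher and 0 lower, beside 42.1% and 5.34%. Of 6 tested collagen receptors other than Calcr, 1 rose, 0 fell and 5 were not called, beside 7.11% and 20.5% of all tested genes. The 1 that rose was the receptor tyrosine kinase Ddr2 (0.92 ± 0.12, limma, adjusted p = 0.00187). Its deposited values were 17.4 to 24.0 RPKM in young and 54.4 to 74.7 RPKM in old libraries, with a log2 fold change of 1.59. As deposited 2 genes of this list were higher and 0 lower, beside 42.1% and 5.34% of all tested genes. Of 14 muscle stem cell identity genes 1 rose, 6 fell and 7 were not called, beside 7.11% and 20.5% of all tested genes. As deposited 3 of the 14 were higher and 0 lower, beside 42.1% and 5.34%. The adhesion gene Cdh15 and the growth factor receptor Fgfr4 fell by 0.86 each on the read-share scale, Chodl fell by 0.80, and Vcam1, on which the cells were sorted, rose by 0.79. As deposited Cdh15, Fgfr4 and Chodl were not called (-0.18, -0.18 and -0.11). Pax7, the denominator of a ratio above, fell by 0.68 ± 0.18 (limma, adjusted p = 0.0194) and was at -0.03 as deposited.

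Genes whose levels followed Calcr most closely over the 8 libraries, among 5703 genes averaging 5 RPKM or more, were Tmem98 (Pearson r = 0.993), Popdc2 (0.993), Sparc (0.992), Tmco1 (0.990) and Abca8a (0.989). For Col5a1 they were Ctdsp2 (0.983), Tef (0.981), Ski (0.969), Llgl1 (0.965) and Yipf4 (0.962). These coefficients, on log2(RPKM + 1) from the read-share scale, describe 8 libraries that split by age and depth, and they carry no test. All 10 genes had lower means in old animals on that scale, with log2 fold changes between -0.31 (Ctdsp2) and -1.89 (Popdc2). Their choice favours this direction, since Calcr and Col5a1 both fell on the same scale.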

How the data were processed

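RNA of sorted muscle stem cells was sequenced in 8 libraries, and the authors deposited RPKM values for 24630 genes. Per the submitters' processing notes, Trim Galore, STAR, featureCounts, Subread and edgeR were used by the authors with builds mm10 and GRCm38. Settings and the annotation were not given in the sources used here. Values were whole multiples of 1 read's worth (within 0.002 of a whole number) at the annotated gene length for 18802 of 23461 genes with reads. For the rest a length was searched for until the values fitted, so their reads are known only up to a common divisor. With both, reads were recovered for 100% of these genes. Library totals ran from 1.91 to 24.9 M (mega) reads, in the young libraries well below the sequencing depth in the labels' protocols. Symbols repeated in the table numbered 58. The authors had replaced zeros by small values in 7124 genes. Per the labels' protocols, priming was by oligo(dT), and no strand-marking step is named, so antisense overlaps cannot be told apart. Differences were tested by limma 3.58.1 in R 4.3.3, with a trended variance prior, on log2(RPKM + 1) over 11096 genes averaging 1 RPKM or more, on the deposited scale and after rescaling to library totals (the read-share scale), and the script was tested on simulated data. Locations are from GENCODE M21 on GRCm38. Ratios were tested by exact permutation. Genes outside the 8 were named by a fixed rule: in each pathway list, up to 4 called genes with the largest change, every peptide ligand, and the 5 genes most correlated with Calcr and with Col5a1. Pax7, Pecam1, Ptprc, Ly6a, Dcn, Gsn, Fmod, Prkar1a, Prkar2a, Pde4b, Rbpj, Lats1, Lats2, Col1a2, Col11a1, Gnas, Prkacb and the ratio of Col5a3 to Col5a1 fall outside it and were chosen after their values were seen. Pdgfra, Scx, Lyz2 and Cd68 were likewise chosen after their values were seen. The 8 genes and all lists were chosen with earlier results of these data known. Tests of counts with edgeR were not used, since the table holds RPKM.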

Additional observations from a re-analysis of the deposited data

Results flagged for a closer look

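In the old group, library 2 had Calcrl at 65.8 RPKM on library totals, and the next highest old library had 43.4 RPKM. This gap was 0.871 of the range of the 4 old libraries, above Dixon's critical value for 4 values. It was the 1 flag among 30 groups of 4 examined, where chance flags about 1 in 20. Old library 2 also had the lowest summed endothelial markers (52.8 RPKM on the read-share scale) and the lowest old tenocyte sum (514 RPKM), and their part in the value was not tested. Without this library the log2 difference of Calcrl between the ages was 1.34, or 1.94 as deposited.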

How the results depend on the processing

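Calcr and Calcrl kept their direction and their call under all 18 alternatives on the read-share scale (log2 fold changes -1.68 to -0.94 and 1.31 to 2.09) and all 16 on the deposited scale (-1.16 to -0.73 and 1.89 to 2.26). Median-ratio size factors gave 4180 genes higher and 662 lower in place of the library-total counts of 789 and 2280, with Ramp2 at -0.31 and Col5a1 at -0.31, both no longer called, Col5a2 at 0.47 and Col5a3 at 0.0022. Without young libraries 1 and 2 there were 422 higher and 1336 lower genes on the read-share scale and 2665 higher on the deposited scale, with Ramp2 at -0.77 and Col5a1 at -0.70 (read-share scale) and Col5a2 at 0.47 and Col5a3 at -0.038 (deposited scale). Thinned reads gave 1366 lower genes, Ramp2 -0.69 and Col5a1 -0.75. A minimum mean of 5 RPKM left 714 lower genes on the read-share scale and 64 on the deposited scale, no minimum gave 8166 and 5988, and limma-voom gave 915 on the deposited scale.

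With each library left out in turn, the read-share scale gave 504 to 886 higher and 1257 to 2208 lower genes, Ramp2 -0.85 to -0.61, Col5a1 -0.95 to -0.63 and Col5a3 -0.69 to -0.28. The deposited scale gave Col5a3 -0.14 to 0.23. Col5a3 turned to -0.0014 without young library 2 and to -0.14 without old library 4.

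With a pseudocount of 1, the log2 ratios of Col5a1 to Col5a2 (-0.79), Calcr to Pax7 (-0.82), Calcr to Calcrl (-3.03), Calcrl to the endothelial sum (2.30) and Col5a1 to the fibroblast sum (-1.03) had an adjusted exact permutation p of 0.04. Without it this was 0.08 for Col5a1 to Col5a2 and 0.05 for the others, already at the smallest exact p. Their adjusted p moved because Col5a1 to Col5a2 reached the smallest exact p too. The added 1 also makes these ratios depend on library scaling.

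Replicate numbers name different animals, and same-numbered deviations correlated between -0.119 and 0.255, with 2 of 8 libraries closest to their own number. With a replicate block, Col5a2 was no longer called on the deposited scale (0.55, adjusted p = 0.0703), and the read-share scale gave 680 higher and 1673 lower genes. With fewer libraries or in pairs the ratio tests cannot pass 0.05. The planned edgeR and DESeq2 fits were not run, because the table holds RPKM. A limma-voom fit on the read-share scale was added after seeing the data. The causes of these shifts were not tested. Depth limits Ramp1 and Ramp3, with 1 to 31 reads a library.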

Other observations

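Calcr (chromosome 6, 3685680 to 3764714, minus strand) hosts the microRNA genes Mir489 and Mir653 outside its exons on the same strand. Mir489, known for a role in satellite cell quiescence, had 0 reads in all young libraries and 0, 2, 1 and 0 reads in old libraries 1 to 4. Priming by oligo(dT) does not measure mature microRNAs, so these counts give no level.

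Vps25, which shares 1103 exon bases with Ramp2, had 2 to 4 reads in young and 11 to 19 reads in old libraries. The effect of the shared bases on Ramp2 was not tested. Gnas, the gene of the Gs alpha subunit, had 0.613 to 1.00 RPKM in young and 0.775 to 1.01 RPKM in old libraries and was not tested. It overlaps other transcripts of its imprinted locus, and the counting of such overlaps is not given in the sources used here.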
